A study of Homo sapiens with 12 samples.

Results

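The desmosome components examined here are 10 human genes, found by matching their symbols to the Ensembl identifiers of the count tables. They are the plakin desmoplakin (DSP), the armadillo proteins plakoglobin (JUP) and plakophilins PKP1, PKP2 and PKP3, the desmocollins DSC2 and DSC3, the desmogleins DSG2 and DSG3, and the membrane protein PERP, out of 57820 identifiers counted in each library. RNA was sequenced from TE10 and Kyse410, both established lines of esophageal squamous cell carcinoma. Each line had been stably infected with a short hairpin RNA against UHRF1 (shUHRF1) or with a scramble control, and each of the 4 groups had 3 libraries. UHRF1 is a nuclear protein that reads histone marks and hemimethylated DNA and brings the maintenance methyltransferase DNMT1 to replicating DNA. The labels do not give the number of hairpins or say whether an infected population was a clone, and they do not tie the 3 libraries of a group to separate cultures. P-values therefore measure the spread among these libraries only, part or all of which may be technical.

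Desmosomes are spot junctions that tie the keratin filaments of neighbouring epithelial cells together. Desmogleins and desmocollins are cadherins that meet their partners in the space between cells, plakoglobin and the plakophilins bind the cadherin tails inside the cell, and desmoplakin links that plaque to keratin. PERP is a tetraspan protein that stratified epithelia need for stable desmosomes. DSG2 and DSC2 are the broadly expressed cadherins, whereas DSG3 and DSC3 are known for stratified epithelium such as the lining of the esophagus.

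Between 7857662 and 12005229 reads per library were assigned to genes. UHRF1 itself stood at 82.06, 86.77 and 88.89 CPM (reads scaled to a common library size) in the TE10 shUHRF1 libraries and at 173.2, 178.7 and 183.8 CPM in the TE10 scramble libraries. In Kyse410 it stood at 42.06, 43.5 and 41.87 CPM with the hairpin and at 100.8, 101.4 and 95.13 CPM with scramble, so the targeted transcript was lower in every library labelled shUHRF1. The epithelial label was checked with 8 markers, the keratins KRT5, KRT6A, KRT14 and KRT19 with TP63, SFN, CDH1 and EPCAM, some of which mark epithelia in general. Their summed level ran from 1375 to 1405 CPM in TE10 scramble and from 1425 to 1458 CPM in TE10 shUHRF1. That sum hides opposite moves in TE10, where KRT5, KRT6A, KRT14, TP63 and SFN fell and KRT19, CDH1 and EPCAM rose. In Kyse410 the sum moved with the hairpin, from 650.7 to 668.6 CPM in scramble to between 1007 and 1047 CPM in shUHRF1, and its part in the results was not tested. Keratins KRT5 and KRT14, which mark basal squamous cells, were low in Kyse410, with scramble means of 1.14 CPM and 4.39 CPM. Other keratins varied there. The scramble means were 0.253 CPM for KRT4, 2.04 for KRT16, 12.4 for KRT6A and 19.56 for KRT15. KRT17 stood at 80.97 CPM, KRT13 at 885.7 CPM and TP63 at 97.5 CPM. Markers of blood cells summed to at most 1.31 CPM in any library. Mitochondrial transcripts took 4.955 to 5.728% of gene reads in TE10 shUHRF1 and 5.947 to 6.049% in TE10 scramble, against 3.792 to 4.001% in Kyse410 shUHRF1 and 2.298 to 2.427% in Kyse410 scramble. The part of this share in the results was not tested, but scaling without mitochondrial genes, an alternative chosen after seeing the data, changed no call among the desmosomal genes.

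Per kilobase of exon, the desmosomal transcripts differed widely in level and kept to a common layout. JUP, PERP, DSP and PKP3 filled the 4 highest places in every group, DSG2 and PKP2 the next places, then DSG3, then the desmocollins, with PKP1 last. In the TE10 scramble libraries DSP was highest at 110.1 ± 1.95 CPM per kb (SD, n = 3), ahead of PERP at 104.5 ± 3.05 and JUP at 84.5 ± 2.61 CPM per kb, and none of these neighbours overlapped. In TE10 shUHRF1 JUP stood highest, at 151.0 ± 0.951 CPM per kb, and the libraries of DSP, at 80.45 ± 3.65, overlapped those of PKP3, at 77.98 ± 2.32 CPM per kb. JUP was also highest in both Kyse410 groups, at 131.6 ± 4.76 CPM per kb with scramble and 144.0 ± 4.47 with the hairpin. In Kyse410 scramble PKP2, at 23.32 ± 0.617 CPM per kb, overlapped DSG2, at 21.75 ± 1.05 CPM per kb. In Kyse410 shUHRF1 the libraries of PERP, DSP and PKP3 overlapped from one to the next, at 72.72, 71.13 and 69.86 CPM per kb. DSG3 lay between 1.48 and 2.86 CPM per kb over the 4 group means, and the desmocollins between 0.389 and 0.775 CPM per kb.

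**Figure D1:**
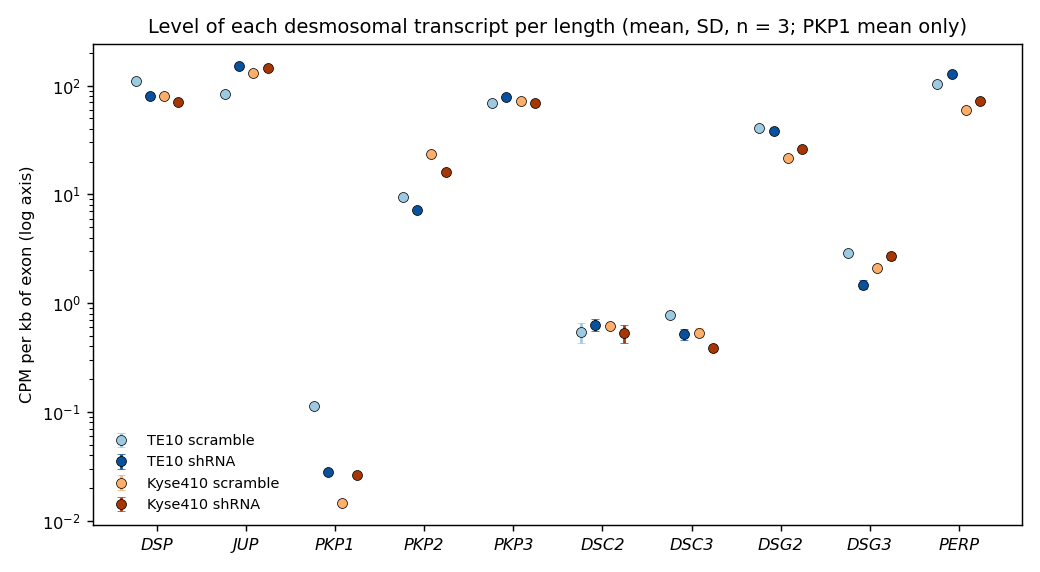
Group means of each desmosomal transcript in CPM per kb of exon on a log axis, with whiskers of 1 SD over 3 libraries except for PKP1, shown as a mean only, whose mean less 1 SD falls below 0 in Kyse410 scramble and cannot be drawn on a log axis. JUP, PERP, DSP and PKP3 lie highest in all 4 groups and PKP1 lies lowest.

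In TE10 shUHRF1 the transcripts of plaque proteins differed from scramble in opposite directions. JUP rose 1.79-fold and PKP3 1.14-fold, while DSP fell to 73.1% and PKP2 to 77.1% of scramble, and DSG3 fell to 51.8%. In Kyse410 JUP rose by less and DSP fell by less, PKP2 fell to 68.2% of scramble, and both desmogleins rose, DSG3 1.27-fold and DSG2 1.21-fold. PERP rose in both lines by close to the same factor. Of the 9 desmosomal genes with enough reads to test, 3 rose and 4 fell in TE10, where 18.8% of all 16060 genes tested rose and 20.0% fell. In Kyse410 4 of the 9 rose and 2 fell, where 22.6% of all genes rose and 26.7% fell. The median log2 difference of the 9 was −0.10 in TE10 and −0.05 in Kyse410, beside 0.00 and −0.03 over all genes. Rose and fell refer to genes with a Benjamini-Hochberg adjusted p under 0.05 over all genes in edgeR's quasi-likelihood test. In bulk RNA, fewer cells that express a gene and less of its RNA per cell cannot be told apart.

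The promoters of DSP, JUP, DSG2 and DSG3 are shown because they are 4 of the 5 genes whose response differed between the lines by the test given further on, and because UHRF1 acts on DNA methylation at CpG dinucleotides. They were picked after the values had been seen. Each is 250 bases before to 30 bases after a RefSeq start site (GRCh38.p14), 5′ to 3′ on the gene's strand, with every CpG in capitals. DSP lies at chr6:7541421-7541700 on the plus strand, DSG2 at chr18:31497927-31498206 on the plus strand, and DSG3 at chr18:31447491-31447770 on the plus strand. JUP has an outer start at chr17:41786682-41786961 and an inner start at chr17:41785947-41786226, both on the minus strand. The 30 bases after the start were found in a GENCODE 29 transcript of the gene for DSP, DSG2 and both JUP starts, but not for DSG3.
DSP: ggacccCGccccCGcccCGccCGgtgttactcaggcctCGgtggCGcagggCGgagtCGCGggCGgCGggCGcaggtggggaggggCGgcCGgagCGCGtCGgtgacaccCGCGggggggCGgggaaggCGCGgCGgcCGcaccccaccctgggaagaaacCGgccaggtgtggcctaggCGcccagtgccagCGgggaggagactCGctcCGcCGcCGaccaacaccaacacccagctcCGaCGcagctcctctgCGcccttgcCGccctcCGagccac
JUP outer start: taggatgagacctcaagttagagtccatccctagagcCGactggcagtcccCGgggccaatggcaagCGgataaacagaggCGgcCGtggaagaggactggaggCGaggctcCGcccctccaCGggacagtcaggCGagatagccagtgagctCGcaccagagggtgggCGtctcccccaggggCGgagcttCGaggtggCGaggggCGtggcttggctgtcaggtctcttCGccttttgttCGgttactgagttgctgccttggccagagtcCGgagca
JUP inner start: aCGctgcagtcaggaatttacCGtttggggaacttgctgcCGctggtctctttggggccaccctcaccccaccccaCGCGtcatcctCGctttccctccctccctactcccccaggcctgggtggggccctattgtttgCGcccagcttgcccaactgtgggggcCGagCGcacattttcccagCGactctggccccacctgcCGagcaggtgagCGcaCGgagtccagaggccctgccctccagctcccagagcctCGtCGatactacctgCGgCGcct
DSG2: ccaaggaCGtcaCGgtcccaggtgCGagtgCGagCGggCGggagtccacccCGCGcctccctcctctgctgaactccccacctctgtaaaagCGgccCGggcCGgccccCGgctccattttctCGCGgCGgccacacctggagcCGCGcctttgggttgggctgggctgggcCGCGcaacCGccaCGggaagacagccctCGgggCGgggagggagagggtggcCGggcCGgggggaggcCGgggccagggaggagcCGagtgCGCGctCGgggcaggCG
DSG3: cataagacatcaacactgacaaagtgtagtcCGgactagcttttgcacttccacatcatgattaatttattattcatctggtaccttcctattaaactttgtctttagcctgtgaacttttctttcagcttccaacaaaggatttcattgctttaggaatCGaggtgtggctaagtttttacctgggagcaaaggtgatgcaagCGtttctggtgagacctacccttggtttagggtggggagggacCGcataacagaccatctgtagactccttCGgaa

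Over 300 bases per start (to 50 after it), DSG3 held 6 CpGs, whereas DSG2 held 36 and DSP 37, and the median of 35116 RefSeq promoters was 14. The JUP starts held 23 and 19 CpGs. Promoters were matched for 8 of the 10 genes, and among the others PERP held 43 CpGs, DSC3 25, PKP1 19 and the DSC2 starts 15 and 22. The E-box CACCTG, read on both strands and therefore also counted as CAGGTG, is a sequence known to be bound by the ZEB and SNAI repressors. It was found at DSP, at the inner JUP start, at DSG2 and at 1 DSC2 start, so at 4 of the 10 start sites of the 8 genes, and at 20.6% of all start sites in the table. In DSP it began at −178 and −85, in JUP at −54 and −43 and in DSG2 at −232 and −116, where −1 is the base before the start. The Grainyhead sequence AACCGGTT was at none of the 10 start sites and at 0.13% of all. These matches describe letters in a window and not binding, and DNA methylation was not measured in these libraries.

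DSP, the plakin that anchors keratin to the plaque, measured 1106, 1094 and 1133 CPM in the TE10 scramble libraries and 770.0, 826.7 and 839.1 CPM in TE10 shUHRF1. All 3 hairpin libraries lay below all 3 scramble libraries, and DSP fell by 0.45 ± 0.0352 (log2, SE; adjusted p = 1.22e-15). In Kyse410 it measured 806.8, 811.1 and 793.3 CPM with scramble and 742.3, 713.9 and 697.5 CPM with the hairpin. The groups again did not overlap, and the fall of 0.16 ± 0.035 on the log2 scale was smaller (adjusted p = 0.000103).

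JUP, which binds the tails of both desmosomal cadherin families and also sits in adherens junctions, measured 431.7, 414.5 and 406.5 CPM in TE10 scramble. In TE10 shUHRF1 it measured 741.4, 750.8 and 746.0 CPM, a narrow band far above every scramble library. JUP rose by 0.84 ± 0.037 (log2, SE; adjusted p = 2.23e-25). In Kyse410 it measured 664.6, 623.2 and 663.2 CPM with scramble and 733.3, 689.1 and 712.2 CPM with the hairpin. The lowest hairpin library lay above the highest scramble library, and the rise was 0.13 ± 0.0355 (adjusted p = 0.00201).

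PKP2, the plakophilin of simple epithelia and heart, measured 68.49, 66.68 and 63.96 CPM in TE10 scramble and 50.51, 51.88 and 50.95 CPM in TE10 shUHRF1. It fell by 0.38 ± 0.0636 (adjusted p = 3.07e-06). In Kyse410 it measured 169.3, 161.5 and 162.0 CPM with scramble and 106.7, 116.1 and 113.2 CPM with the hairpin. PKP2 was the desmosomal gene that fell furthest there, by 0.55 ± 0.0484 (adjusted p = 3.66e-14), and the groups did not overlap in either line.

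PKP3, a plakophilin found in nearly all epithelial desmosomes, measured 265.2, 245.0 and 268.0 CPM in TE10 scramble and 305.5, 290.0 and 290.6 CPM in TE10 shUHRF1. It rose by 0.19 ± 0.0419 (adjusted p = 0.000268), and no hairpin library fell within the scramble range. In Kyse410 it measured 281.1, 269.1 and 271.6 CPM with scramble and 268.6, 258.1 and 266.9 CPM with the hairpin. The groups did not overlap there either, but the Kyse410 difference of −0.05 did not pass (adjusted p = 0.305, 95% interval −0.133 to 0.03).

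PKP1, the plakophilin of the upper layers of stratified epithelium, was close to absent and too low to test. Its reads were 4, 9 and 5 in TE10 scramble, 2, 0 and 2 in TE10 shUHRF1, 1, 0 and 2 in Kyse410 scramble, and 0, 2 and 3 in Kyse410 shUHRF1.

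DSG3, a desmoglein of stratified epithelium and the target of autoantibodies in pemphigus vulgaris, changed in opposite directions. It measured 16.28, 15.57 and 15.57 CPM in TE10 scramble and 7.76, 9.07 and 7.70 CPM in TE10 shUHRF1. DSG3 fell by 0.95 ± 0.137 in TE10 (adjusted p = 1.09e-07), with a wide gap between the groups. In Kyse410 it measured 11.38, 11.43 and 12.32 CPM with scramble and 14.6, 16.14 and 13.78 CPM with the hairpin. Every Kyse410 hairpin library lay above every scramble library, and DSG3 rose by 0.35 ± 0.118 (adjusted p = 0.0121). That call was lost without the second Kyse410 shUHRF1 library (adjusted p = 0.0629) and with DESeq2 (0.0567), over a range of 0.00695 to 0.0629.

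DSG2, the most abundant desmosomal cadherin here, measured 253.9, 256.9 and 251.5 CPM in TE10 scramble and 239.4, 248.0 and 223.0 CPM in TE10 shUHRF1. The groups did not overlap, but the difference of −0.10 ± 0.0449 did not pass (adjusted p = 0.0694). It passed without the second TE10 shUHRF1 library (0.0259), without the first Kyse410 shUHRF1 library (0.043) and with only the TE10 groups fitted (0.0357), over a range of 0.0259 to 0.373. In Kyse410 DSG2 measured 129.7, 142.0 and 132.2 CPM with scramble and 155.1, 165.6 and 167.4 CPM with the hairpin. It rose by 0.27 ± 0.0467 there (adjusted p = 1.98e-06). The antisense gene DSG2-AS1 overlaps 171 bases of DSG2 exon, 2.76% of its length, and had 80 to 166 reads per library. Reads in those bases cannot be assigned to a strand from what the sources give.

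DSC3, a desmocollin of stratified epithelium, measured 5.43, 5.59 and 5.40 CPM in TE10 scramble and 3.31, 3.58 and 4.11 CPM in TE10 shUHRF1. It fell by 0.58 ± 0.225 (adjusted p = 0.0363). The call rests on few reads: it was lost without the first or second TE10 shUHRF1 library (0.137 and 0.0797), without any 1 of the TE10 scramble libraries (0.0629, 0.0785 and 0.0666), with no filter (0.0669) and with DESeq2 (0.134). Over all alternatives its adjusted p ran from 0.0341 to 0.137. In Kyse410 DSC3 measured 3.98, 3.37 and 3.98 CPM with scramble and 2.56, 2.87 and 2.82 CPM with the hairpin, and the difference of −0.46 did not pass (adjusted p = 0.0881). The groups did not overlap in either line.

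DSC2, the broadly expressed desmocollin, gave no call in either line, and its groups overlapped in both. It measured 7.11, 7.96 and 5.30 CPM in TE10 scramble and 8.91, 7.92 and 6.90 CPM in TE10 shUHRF1, and 7.72, 7.96 and 7.68 CPM in Kyse410 scramble and 6.39, 5.49 and 7.92 CPM in Kyse410 shUHRF1. Its difference was 0.23 in TE10 (adjusted p = 0.337, 95% interval −0.136 to 0.599) and −0.25 in Kyse410 (adjusted p = 0.216, interval −0.591 to 0.084).

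PERP measured 448.6, 435.2 and 461.4 CPM in TE10 scramble and 532.7, 532.5 and 573.4 CPM in TE10 shUHRF1. In Kyse410 it measured 259.6, 262.5 and 252.9 CPM with scramble and 307.1, 322.1 and 306.6 CPM with the hairpin. The hairpin libraries were the higher ones in both lines without overlap. PERP rose by 0.28 ± 0.0384 in TE10 (adjusted p = 2.13e-08) and by 0.27 ± 0.0395 in Kyse410 (adjusted p = 6.56e-08).

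**Figure D2:**
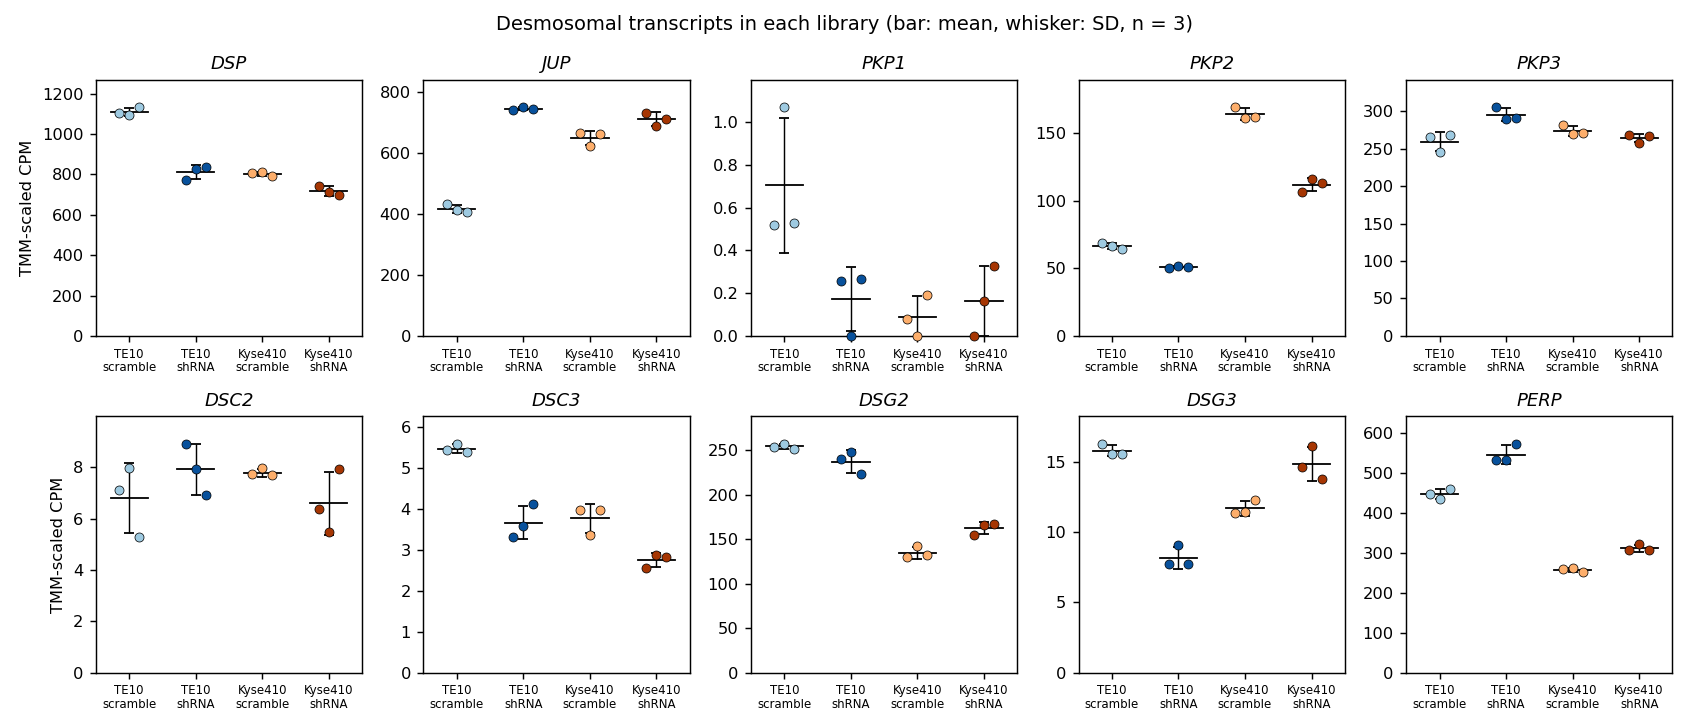
Level of each desmosomal gene in CPM (linear axes from 0), with 1 point per library, a line at each group mean and a whisker of 1 SD (n = 3). JUP and PERP are higher with the hairpin in both lines, DSP and PKP2 lower, and DSG3 is lower in TE10 and higher in Kyse410.

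Whether the response differed between the lines was tested directly as the Kyse410 response minus the TE10 response. Of the 9 genes, 3 had a higher and 2 a lower response in Kyse410, where 19.0% of all genes were higher and 19.9% lower. DSG3 differed most, by 1.296 ± 0.181 on the log2 scale (adjusted p = 5.52e-08). DSG2 differed by 0.38 ± 0.0648 (adjusted p = 4.46e-06) and DSP by 0.29 ± 0.0496 (adjusted p = 3.83e-06). JUP differed by −0.71 ± 0.0513 (adjusted p = 1.35e-16) and PKP3 by −0.24 ± 0.0582 (adjusted p = 0.000792). For PERP the difference was −0.01 with a 95% interval of −0.122 to 0.1 (adjusted p = 0.896). The difference for PKP2 did not pass either (adjusted p = 0.0731, interval −0.339 to −0.017), nor did those for DSC2 (adjusted p = 0.12) and DSC3 (adjusted p = 0.812).

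**Figure D3:**
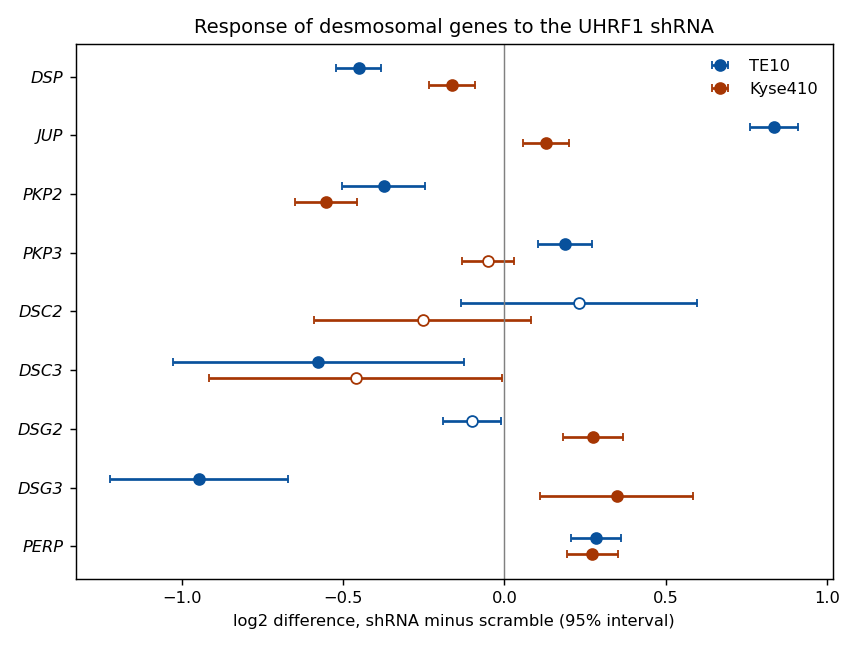
Log2 difference between shUHRF1 and scramble for the 9 tested desmosomal genes in each line, with 95% intervals from the edgeR fit and open points where the test did not pass. DSG3 lies at −0.95 in TE10 and 0.35 in Kyse410, and JUP at 0.84 and 0.13.

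The make-up of the junction transcripts is described here without a test. In TE10 the ratio of JUP to DSP per kb went from 0.797, 0.774 and 0.733 in scramble to 1.97, 1.86 and 1.82 with the hairpin, while in Kyse410 it went from 1.68, 1.57 and 1.71 to 2.02, 1.97 and 2.09. The TE10 scramble libraries thus stood alone in having more DSP than JUP per length. DSG3 made up 6.52% of the desmoglein level per kb in TE10 scramble and 3.72% in TE10 shUHRF1, against 8.89% and 9.28% in Kyse410. PKP2 made up 12.1% of the plakophilin level per kb in TE10 scramble and 8.52% with the hairpin, and 24.4% and 18.5% in Kyse410. The 10 genes together summed to 2586 CPM in TE10 scramble and 2707 CPM with the hairpin, and to 2309 and 2305 CPM in Kyse410.

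**Figure D4:**
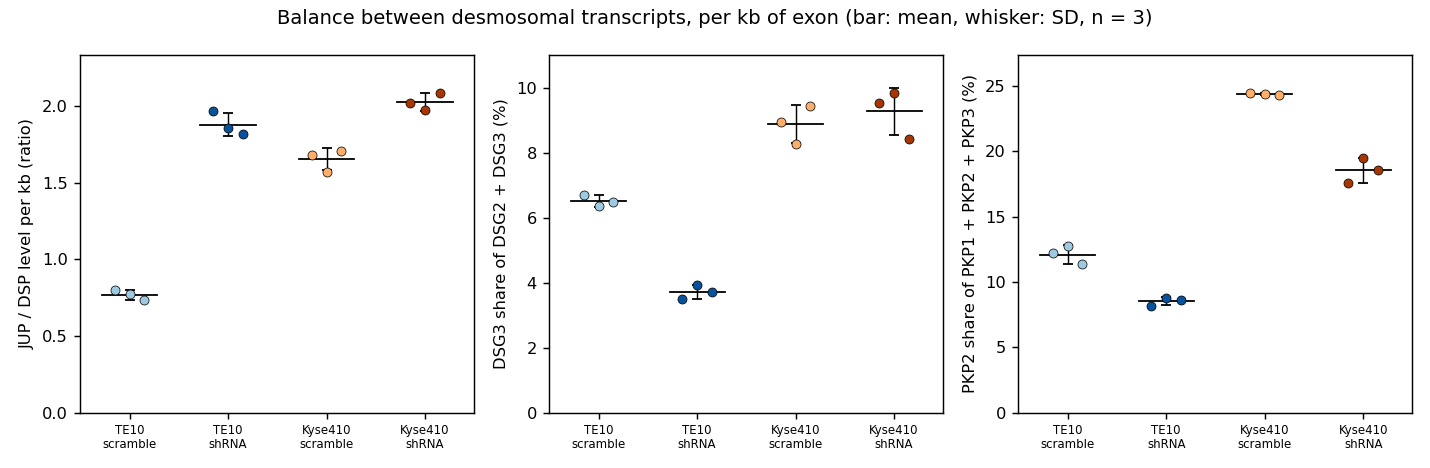
JUP to DSP ratio per kb, DSG3 share of the desmogleins per kb and PKP2 share of the plakophilins per kb, with 1 point per library, a line at each group mean and a whisker of 1 SD (n = 3). The TE10 scramble libraries have the lowest JUP to DSP ratio, with a mean of 0.768, and the PKP2 share is lower with the hairpin in both lines.

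Without knockdown several desmosomal genes stood at different levels in the 2 lines. This comparison uses the same scramble libraries as the knockdown comparisons and holds 1 line on each side, so it describes these lines. In Kyse410, 2 of the 9 genes were higher and 5 lower than in TE10, where 36.7% of all genes were higher and 37.1% lower. A difference between the lines was therefore common among all genes and not particular to these. PKP2 was 2.48-fold higher in Kyse410 (log2 1.31 ± 0.0532, adjusted p = 2.96e-28) and JUP 1.56-fold higher (0.64 ± 0.0367, adjusted p = 7.24e-22). DSG2 stood at 52.9% of its TE10 level (adjusted p = 2.38e-24), PERP at 57.6% (adjusted p = 1.42e-24), DSP at 72.3% (adjusted p = 2.38e-17) and DSG3 at 74.1% (adjusted p = 0.0014). DSC3 stood at 69.3% (adjusted p = 0.0221), a call lost without the second Kyse410 scramble library (0.0745), with library totals (0.0579) and with DESeq2 (0.109), over a range of 0.0179 to 0.109. PKP3 did not pass (adjusted p = 0.079), but it did with DESeq2 (0.0182), with RLE scaling (0.0155), with library totals (0.000149) and with only these groups fitted (0.0212), over a range of 0.000149 to 0.484. PKP1, untested under the filter, was lower in Kyse410 when no filter was used (adjusted p = 0.0107) and with DESeq2 (0.0392). The median over the 9 genes was −0.43, beside 0.00 over all genes.

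The other genes of the junction and its keratin anchors were counted from lists. Over all genes tested, 18.8% rose and 20.0% fell in TE10, and 22.6% rose and 26.7% fell in Kyse410. The lists share genes: DST and PLEC are both plakins and hemidesmosome genes here, and CDH1 and TP63 are also among the epithelial markers. Of 5 further desmosome genes only 2 were tested, and PKP4, an armadillo relative of the plakophilins, rose in TE10 by 0.16 (adjusted p = 0.0214), with no call in Kyse410. The skin cadherins DSC1 and DSG4, which neighbour the desmosomal cadherins on chromosome 18, had 0 reads in every library. Of 5 plakins and keratin linkers tested, 1 rose and 3 fell in TE10, and 2 rose and 2 fell in Kyse410. PPL (periplakin) rose in both lines, by 0.87 and 0.34 (adjusted p = 7.75e-22 and 4.17e-10), and DST and MACF1, which link filaments to the membrane or to each other, fell in both. DST fell by 0.74 in TE10 (adjusted p = 5.71e-20) and by 0.18 in Kyse410 (adjusted p = 0.000262).

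Of 12 keratins tested, 4 rose and 5 fell in TE10, and 6 rose and 3 fell in Kyse410, beside the shares of all genes given above. KRT5, a basal keratin that desmoplakin anchors, fell by 3.06 in TE10, from 67.44 ± 1.06 to 8.05 ± 0.455 CPM (SD, n = 3; edgeR adjusted p = 4.21e-28). KRT14, its partner, fell by 2.28 in TE10 (adjusted p = 5.66e-23) and by 1.79 in Kyse410 (adjusted p = 1.29e-08). KRT17 also fell in both lines, and KRT19, a keratin of simple epithelia, rose in both, by 1.07 and 1.34 (adjusted p = 4.21e-28 and 1.02e-30). KRT13 rose in both as well, by 0.775 and 0.27 (adjusted p = 1.54e-22 and 1.31e-09). KRT8 and KRT18 rose by 0.67 and 0.63 in Kyse410 (adjusted p = 1.07e-21 and 3.67e-21). In TE10 KRT8 gave no call (adjusted p = 0.28) and KRT18 rose by 0.09 (adjusted p = 0.0389). KRT6A fell by 0.76 in TE10 and rose by 0.48 in Kyse410. KRT7 rose by 0.21 in TE10 and fell by 0.18 in Kyse410, and KRT15 gave no call in either line. Of 10 adherens junction genes 1 rose and 6 fell in TE10, and 4 rose and 6 fell in Kyse410. CDH1, the E-cadherin of those junctions, rose by 1.200 in TE10 (adjusted p = 3.06e-24) and by 0.79 in Kyse410 (adjusted p = 6.38e-21). Of 9 hemidesmosome genes, which fix keratin to the basement membrane, 2 rose and 6 fell in TE10, and 2 rose and 5 fell in Kyse410. ITGB4, the beta subunit of their integrin, fell by 0.97 in TE10 (adjusted p = 3.33e-29) and gave no call in Kyse410 (adjusted p = 0.282).

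Of 9 tested transcription factors linked to desmosomal genes, 3 rose and 5 fell in TE10, and 3 rose and 6 fell in Kyse410. Over all genes, 18.8% rose and 20.0% fell in TE10, and 22.6% rose and 26.7% fell in Kyse410. ZEB2, a repressor of epithelial cadherins, fell in both lines, by 1.27 (adjusted p = 2.28e-08) and by 1.80 (adjusted p = 7.94e-13). ZEB1 also fell in both, by 1.05 and 0.78 (adjusted p = 2.55e-07 and 5.38e-05), as did SNAI2, by 0.54 and 0.88 (adjusted p = 6.57e-09 and 1.01e-20). SNAI1 went the other way in Kyse410, where it rose by 0.95 (adjusted p = 1.05e-09), with no call in TE10 (adjusted p = 0.253). TP63, the master factor of stratified epithelium, fell by 0.69 in TE10 (adjusted p = 3.03e-13) and rose by 0.14 in Kyse410 (adjusted p = 0.0264). GRHL1, a Grainyhead factor, rose by 0.91 in TE10 (adjusted p = 0.000849) and fell by 0.48 in Kyse410 (adjusted p = 5.48e-05). Its level in TE10 was low, at 2.48 CPM with scramble and 4.65 CPM with the hairpin. GRHL3, also low, rose in both lines, by 3.31 in TE10 (adjusted p = 5.26e-14) and by 1.44 in Kyse410 (adjusted p = 4.56e-05). Its scramble means were 0.880 CPM in TE10 and 1.11 CPM in Kyse410. Of the 8 epithelial markers, 4 of which are also in the keratin list, 3 rose and 5 fell in TE10 and 6 rose and 1 fell in Kyse410. Those that rose in Kyse410 were KRT6A, KRT19, TP63, SFN, CDH1 and EPCAM, of which KRT19, CDH1 and EPCAM are not particular to squamous cells.

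**Figure D5:**
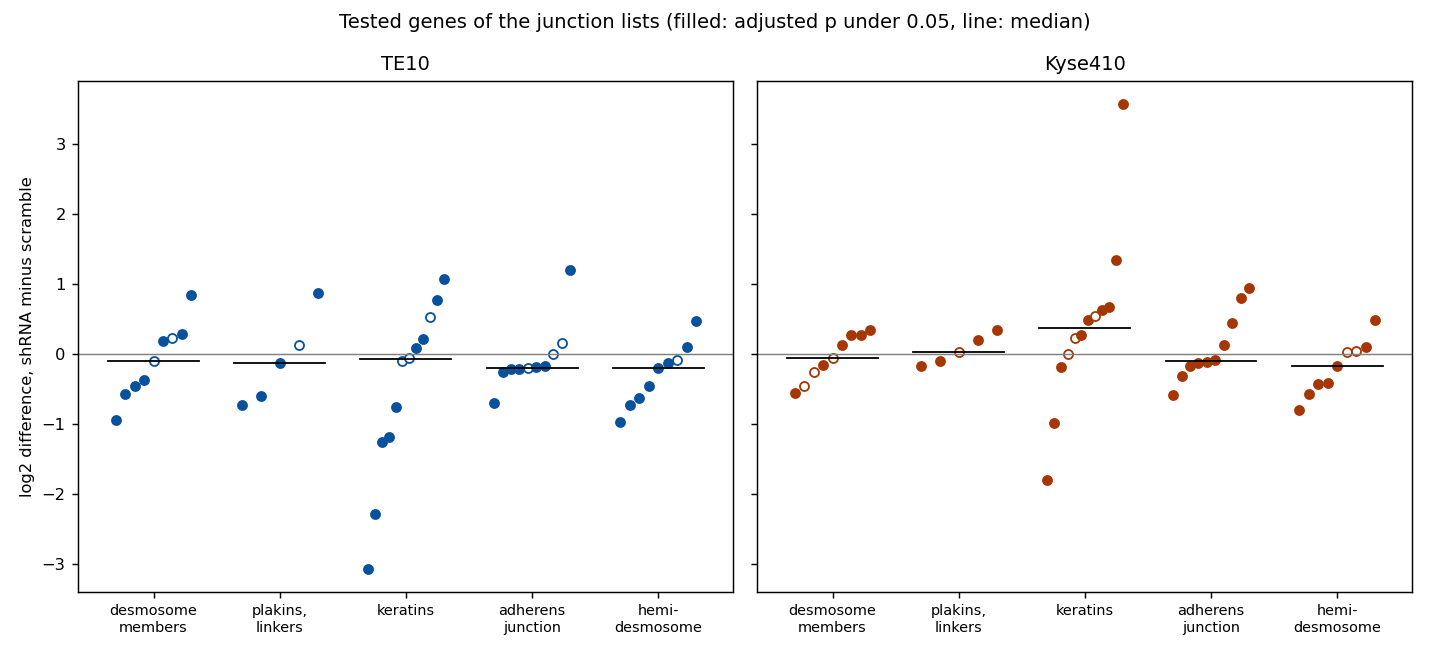
Log2 difference between shUHRF1 and scramble in each line for every tested gene among the 10 desmosomal genes, the plakins and linkers, the keratins, the adherens junction genes and the hemidesmosome genes, with 1 point per gene, filled where called, and a line at each median. KRT5 lies at −3.06 in TE10, and the Kyse410 point at 3.57 is KRT4, named after its value was seen, whose scramble libraries held 1, 2 and 5 reads.

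For DSP and for each gene called in both lines, the genes most like it were taken by Pearson's r of log2 CPM over the 12 libraries, among 11233 genes. These values are descriptions, since the libraries fall into 4 groups that set most of r. DSP was most like BCAP29 (0.991), TNC (0.99) and CALD1 (0.983), and JUP most like HPSE (0.979), ANKRD10 and AATK (both 0.973). PKP2 was most like MED13L, SHROOM3 and TANC2 (each 0.997), DSG3 most like MT2A (0.975), PDE2A (0.973) and RAET1G (0.971), and PERP most like CHRNA5 (0.994), MORF4L1 and ZNF771 (both 0.993).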

How the data were processed

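The deposited files hold whole-number read counts per Ensembl gene, 1 file per library, made by the authors with HTSeq 0.9.1. HISAT2 2.1.0, bcl2fastq 2.19, DESeq2 and build GRCh37.p13 are also named, per the submitters' processing notes, while the sources used here name no annotation release and no strand option. RNA was polyA-selected, per the labels' protocols. Reads outside any annotated feature were 42.88 to 44.66% of those listed and stayed out of all totals.

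Symbols came from a gene name table and GENCODE 29, and UHRF1 was named from its Ensembl identifier. EPPK1 and PECAM1 were not matched. All 12 libraries were fitted together in edgeR 4.0.16 (filterByExpr by group, 16060 genes, TMM scaling, quasi-likelihood test, 8 residual degrees of freedom), with p-values adjusted by Benjamini-Hochberg over all genes and a call at 0.05. The standard error is the log2 difference divided by the square root of F. CPM use TMM-scaled totals, and levels per kb use the union of GENCODE 29 exons. The test was checked on simulated data. DESeq2 1.42.0, other scalings, no filter, a replicate block and leaving out each library were tried as alternatives.

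All 10 desmosomal genes are named whatever their values. From each other list the called genes of largest change were eligible, at most 4 per comparison with a mean of at least 5 CPM. Some genes are given outside this rule, among them KRT4, KRT7, KRT15, KRT16 and GRHL3. The genes and lists were chosen with earlier results of these data known. The lists of fibroblast and endothelial markers are given among the other observations.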

Additional observations from a re-analysis of the deposited data

Results flagged for a closer look

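The response to UHRF1 knockdown differed between the lines for 5 of the 9 tested desmosomal genes (3 higher, 2 lower), by the edgeR test of the Kyse410 response minus the TE10 response. Of all 16060 genes tested, 19.0% were higher and 19.9% lower in the same test, so a difference between the lines was common among all genes. On the log2 scale the difference was 0.2898 for DSP, −0.7087 for JUP, −0.2384 for PKP3, 0.3753 for DSG2 and 1.2962 for DSG3. DSP and JUP moved the same way in both lines and by less in Kyse410, whereas DSG3 fell in TE10 and rose in Kyse410. PKP3 rose in TE10 with no call in Kyse410, and DSG2 rose in Kyse410 with no call in TE10.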

How the results depend on the processing

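Every count of desmosomal genes called, and of all genes called, stayed within 1.5 times its main value under each alternative run. Of 675 values of single genes under alternatives, 648 kept their direction and side of the threshold, 12 lost a call, 8 gained one and 7 changed sign. All changes of sign were the difference between lines for PERP, which had no call: it was 0.015 with library totals, 0.0111 with no filter, and −0.0347 to 0.0241 with 1 library left out. Same-numbered libraries did not vary together (correlations of −0.012 to 0.037), and not every library correlated best with its own number. With a replicate block 5 desmosomal genes were lower in TE10 in place of 4, the added gene being DSG2 (adjusted p = 0.0454). Depth limits PKP1, DSC2 and DSC3 most.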

Other observations

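CDH5, the cadherin of endothelial adherens junctions, rose from 24.74 ± 0.17 to 95.69 ± 7.63 CPM (SD, n = 3) in Kyse410 with the hairpin (log2 1.95, edgeR adjusted p = 1.95e-27) and by 0.62 in TE10 (adjusted p = 0.000208). It was the only tested gene of the 3 endothelial markers matched, and KDR and VWF stayed under 0.4 CPM in every group mean. Of 6 fibroblast markers 2 were tested, and in each line 1 rose and 1 fell. COL1A1 rose by 0.26 in TE10 (adjusted p = 0.00292) and by 0.43 in Kyse410 (adjusted p = 5.27e-10), while LUM and DCN had 0 reads in both scramble groups. None of 5 blood markers was tested.

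NECTIN1, an adherens junction receptor, fell by 0.22 in TE10 (adjusted p = 6.35e-05) and rose by 0.95 in Kyse410 (adjusted p = 2.06e-24), and the lines differed by 1.16 (adjusted p = 1.52e-21). LAMB3, a laminin chain of the hemidesmosome's anchor, rose by 0.10 in TE10 (adjusted p = 0.0325) and fell by 0.80 in Kyse410 (adjusted p = 7.74e-26).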
